A study of Homo sapiens with 18 samples.

Results

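The NODAL and activin signalling components examined here were 10 genes of the 57133 in the count table chosen by their names: the ligand genes NODAL, GDF3, INHBA and INHBB, the genes of the secreted antagonists LEFTY1, LEFTY2, CER1 and FST, the co-receptor gene TDGF1 and the receptor gene ACVR1B. These genes and the other gene lists below were chosen with earlier results of these data known. The shares of them called are therefore descriptions and no test of the lists. RNA-seq was performed on PGP1, an established human induced pluripotent stem cell (PSC) line kept in mTeSR1 medium on Matrigel. The study asked what the loss of PCGF6, a subunit of the polycomb complex PRC1.6, changes in human PSCs. It used 2 libraries of wild-type (WT) cells, 2 of PCGF6-KO clone 1 and 2 of PCGF6-KO clone 2. Both clones were made from PGP1 by CRISPR-Cas9, and each carried a deletion in the first exon of PCGF6 on both alleles. Each knockout genotype is therefore 1 clone, and no source used here says whether the 2 libraries of a group came from separate cultures, so the p-values measure the spread between these libraries.

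NODAL is a secreted ligand of the TGF-beta family that acts through activin receptors together with an EGF-CFC co-receptor such as TDGF1 (CRIPTO), whereas activins need no co-receptor. The bound type I receptor phosphorylates SMAD2 and SMAD3, which enter the nucleus with SMAD4 and act with factors such as FOXH1. The pathway switches on the genes of its own ligand and of its LEFTY inhibitors, it helps to keep human PSCs undifferentiated, and at higher activity it induces primitive streak, mesoderm and endoderm in the early embryo.

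Promoter windows of 300 bases, from 250 before to 50 after the transcription start, were found in RefSeq (GRCh38.p14) for 7 of the 10 genes, with no window for LEFTY1, LEFTY2 or TDGF1. The windows of 3 genes whose counts rose in both clones (NODAL, CER1 and FST) and of 1 that was not called in either (ACVR1B) are shown, 5′ to 3′ on the strand of the gene. NODAL's window lies at chr10:70441632-70441931 on the reverse strand, CER1's at chr9:14722684-14722983 on the reverse strand, FST's at chr5:53480379-53480678 on the forward strand and ACVR1B's at chr12:51951449-51951748 on the forward strand. Capitals mark a match to 1 of the 5 motifs searched.
NODAL: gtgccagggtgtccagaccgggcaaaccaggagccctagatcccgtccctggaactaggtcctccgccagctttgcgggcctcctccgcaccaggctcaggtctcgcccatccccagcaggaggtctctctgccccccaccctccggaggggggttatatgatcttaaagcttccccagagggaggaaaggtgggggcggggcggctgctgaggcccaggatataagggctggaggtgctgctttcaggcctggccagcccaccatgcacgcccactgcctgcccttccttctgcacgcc
CER1: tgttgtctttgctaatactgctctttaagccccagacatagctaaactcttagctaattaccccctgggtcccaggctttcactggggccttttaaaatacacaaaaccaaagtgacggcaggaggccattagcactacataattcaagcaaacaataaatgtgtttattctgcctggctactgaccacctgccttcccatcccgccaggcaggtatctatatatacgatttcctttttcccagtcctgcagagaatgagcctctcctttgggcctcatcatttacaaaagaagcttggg
FST: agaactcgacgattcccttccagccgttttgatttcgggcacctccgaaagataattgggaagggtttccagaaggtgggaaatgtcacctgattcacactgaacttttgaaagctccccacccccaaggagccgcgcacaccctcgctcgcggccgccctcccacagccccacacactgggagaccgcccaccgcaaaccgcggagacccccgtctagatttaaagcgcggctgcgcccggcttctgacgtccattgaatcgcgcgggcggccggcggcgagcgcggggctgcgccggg
ACVR1B: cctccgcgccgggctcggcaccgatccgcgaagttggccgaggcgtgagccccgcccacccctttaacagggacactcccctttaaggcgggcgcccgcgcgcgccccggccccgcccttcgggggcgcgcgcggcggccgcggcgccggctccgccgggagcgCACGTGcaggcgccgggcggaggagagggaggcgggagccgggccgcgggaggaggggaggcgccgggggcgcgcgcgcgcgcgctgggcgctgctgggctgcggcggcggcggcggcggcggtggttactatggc

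The windows differed in their number of CpG dinucleotides, of which the median over all 35116 RefSeq windows was 14. NODAL had 11 CpGs, CER1 3 and FST 32, and the window shown for ACVR1B had 56. GDF3 and INHBA, both higher in PCGF6-KO, had 1 CpG each, and INHBB, which was close to the detection limit, had 58. The genes that rose therefore spanned CpG-poor and CpG-rich windows. The letters of the MAX E-box (CACGTG, both strands), a site bound by a subunit of PRC1.6, stood in 1 of the 8 windows of these genes, that of ACVR1B, and in 7.26% of all windows. The E2F6 motif GCGGGAA stood in the window of INHBB alone (6.55% of all windows), the TCF/LEF motif CTTTGAT in a second window of ACVR1B (2.62%) and TATAAA in that of INHBA (11.5%). AATCCACA, the motif of FOXH1, was in none of the 8 windows and in 0.817% of all windows. None of these motifs overlapped another in the windows of these genes.

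The libraries held between 15877396 and 18918609 counts, and replicate libraries differed by 2.40 (WT), 4.50 (clone 1) and 3.21 (clone 2) times the counting error expected from sampling alone, as chi-square per degree of freedom. PCGF6 itself had 268 and 300 counts in the WT libraries, 99 and 103 for clone 1, and 187 and 159 for clone 2, so reads of the gene remained in both clones, with fewer in clone 1. A level is given as CPM, counts scaled by TMM to a common library size, and a gene was called when the p-value of edgeR's quasi-likelihood test, Benjamini-Hochberg adjusted over all genes, was under 0.05 and its absolute log2 fold change was over 0.6. Pluripotency markers summed to between 6330 and 6590 CPM in WT, 5440 and 5470 for clone 1, and 5250 and 5380 for clone 2. Of the 6 markers SOX2 alone was called, lower in PCGF6-KO. By clone, SOX2 was at −0.41 on the log2 scale in clone 1, not called, and at −1.04 in clone 2, called lower. With no fold threshold, 4 of the markers were lower and 1 (NANOG) higher in PCGF6-KO at an adjusted p under 0.05.

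Of the 10 genes, 9 passed the filter on low counts and 6 of these 9 were called higher in the 4 PCGF6-KO libraries than in the 2 WT libraries, against 14.9% of the 17672 genes tested. None was called lower, against 8.70% of all genes tested. The 6 were the ligand genes NODAL, GDF3 and INHBA and the antagonist genes LEFTY2, CER1 and FST. LEFTY1, TDGF1 and ACVR1B were not called, and INHBB had too few counts to test. The libraries of the 2 genotypes did not overlap in CPM for 8 of the 9 genes tested, with those 6 higher (background 29.5% of genes tested) and LEFTY1 and ACVR1B lower (27.6%).

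**Figure D1:**
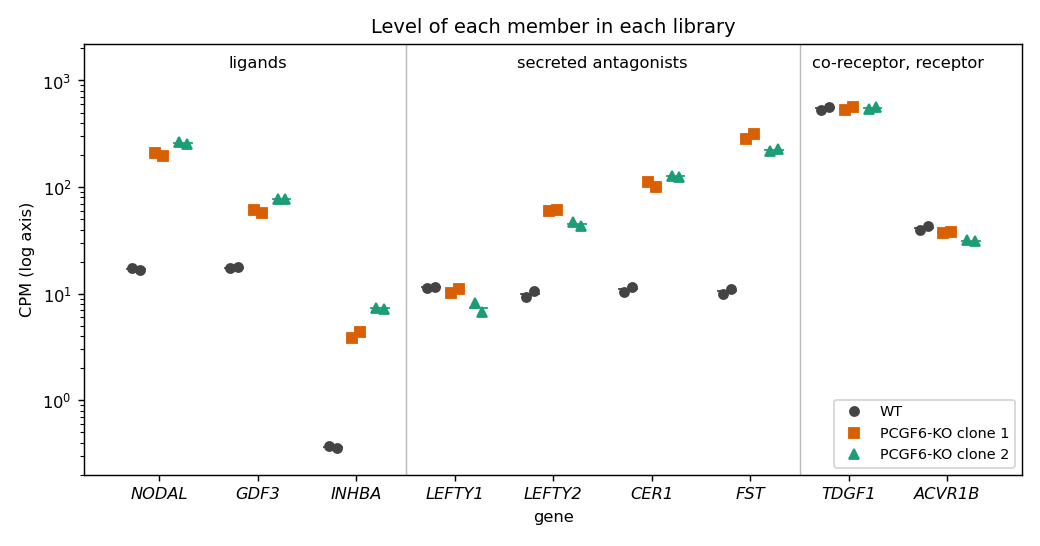
Level of each gene in each library, in CPM on a log axis, with 2 libraries of WT (circles), 2 of PCGF6-KO clone 1 (squares) and 2 of PCGF6-KO clone 2 (triangles) and a short line at each group mean. NODAL, GDF3, INHBA, LEFTY2, CER1 and FST sit above WT in all 4 PCGF6-KO libraries, TDGF1 stays between 524.6 and 568.5 CPM, and INHBB, with at most 5 counts, is not drawn.

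Among the ligand genes, NODAL (chromosome 10, 70431936 to 70447951, reverse strand, GENCODE v44 on GRCh38) had 285 and 277 counts in the WT libraries, 3996 and 3562 for clone 1, and 4764 and 4077 for clone 2. These correspond to 17.1 ± 0.639 CPM (SD, n = 2) for WT and 230.4 ± 32.9 CPM (n = 4) for PCGF6-KO. Every knockout library was above both WT libraries, and both libraries of clone 2 were above both of clone 1. The log2 fold change of NODAL in PCGF6-KO against WT was 3.76 (SE 0.15, adjusted p = 4.37e-07 by the quasi-likelihood test of edgeR, Benjamini-Hochberg adjusted), a 13.5-fold difference, and 2.79% of the genes tested increased by more. Of the exon bases of NODAL, 33.5% lie opposite an uncharacterised transcript on the other strand, and since the strand setting of the counting is not given in the sources used here, its reads could not be told from those of that transcript.

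GDF3 (chromosome 12, 7689784 to 7695775, reverse strand) encodes another ligand of the family that can signal through the same co-receptor and, in human PSCs, also inhibits BMPs. It had 283 and 296 counts in the WT libraries, 1162 and 1034 for clone 1, and 1399 and 1252 for clone 2. Its level was 17.6 ± 0.253 CPM (n = 2) for WT and 68.2 ± 11.0 CPM (n = 4) for PCGF6-KO, again with no overlap and with clone 2 above clone 1. GDF3 thus rose by 1.96 on the log2 scale (SE 0.15, adjusted p = 1.82e-05 by the same edgeR test), or 3.88-fold, and 6.77% of the genes tested increased by more.

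INHBA (chromosome 7, 41667168 to 41705834, reverse strand), the gene of the activin A subunit, was barely detected in WT, with 6 and 6 counts. It had 74 and 80 counts for clone 1 and 134 and 115 for clone 2. All 4 knockout libraries lay above WT, yet INHBA stayed the lowest of the 9 genes per length in every group, at 5.71 ± 1.83 CPM (n = 4) against 0.364 ± 0.00631 CPM (n = 2) in WT. The log2 fold change was 3.94 (SE 0.44, adjusted p = 1.47e-04 by the same edgeR test), with the widest error of the 9 genes tested.

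INHBB (chromosome 2, 120346136 to 120351803, forward strand), the gene of the activin B subunit, had 0 counts in both WT libraries, 2 and 4 for clone 1, and 5 and 3 for clone 2. All 4 knockout libraries thus held reads of INHBB and neither WT library did. A count of 0 allows up to 3 counts per library, or 0.182 CPM, and the PCGF6-KO mean of 0.197 CPM was close to that limit, so no fold is given. In a fit without the filter on low counts, the difference in INHBB missed the threshold (adjusted p = 0.0529, unadjusted p = 0.0105, same edgeR test).

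Among the antagonist genes, FST (chromosome 5, 53480626 to 53487134, forward strand) had the greatest fold change of the 9 genes tested. It encodes follistatin, which binds activins and holds them away from their receptors. FST had 163 and 185 counts in the WT libraries, 5407 and 5746 for clone 1, and 3947 and 3684 for clone 2. The knockout libraries lay far above WT, and here clone 1 was above clone 2. The level was 10.6 ± 0.761 CPM (n = 2) for WT and 261.5 ± 46.1 CPM (n = 4) for PCGF6-KO, a log2 fold change of 4.63 (SE 0.19, adjusted p = 5.14e-07 by the same edgeR test) or 24.8-fold, exceeded by 1.85% of the genes tested.

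CER1 (chromosome 9, 14719724 to 14722733, reverse strand) encodes Cerberus, a secreted inhibitor that binds NODAL, BMP and WNT ligands. Its counts were 170 and 194 in WT, 2121 and 1840 for clone 1, and 2308 and 2011 for clone 2. CER1 rose from 11.0 ± 0.838 CPM (n = 2) to 116.2 ± 12.4 CPM (n = 4), with every knockout library above WT. The log2 fold change was 3.40 (SE 0.13, adjusted p = 3.31e-07 by the same edgeR test).

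LEFTY1 (chromosome 1, 225886282 to 225911382, reverse strand) and LEFTY2 (chromosome 1, 225936598 to 225941383, reverse strand) encode feedback inhibitors that block NODAL and its co-receptor, and they lie 25215 bases apart with 2 other genes between them. LEFTY2 had 153 and 178 counts in the WT libraries, 1131 and 1108 for clone 1, and 862 and 686 for clone 2. LEFTY1 had 185 and 193 counts in the WT libraries, 195 and 201 for clone 1, and 148 and 107 for clone 2. The LEFTY genes therefore parted in both clones, where LEFTY2 alone rose. LEFTY2 increased by 2.39 on the log2 scale (SE 0.17, adjusted p = 1.13e-05 by the same edgeR test), from 10.0 ± 0.898 CPM (n = 2) to 52.6 ± 8.86 CPM (n = 4). LEFTY1 was at 11.5 ± 0.144 CPM (n = 2) for WT and 9.02 ± 1.98 CPM (n = 4) for PCGF6-KO, a log2 difference of −0.34 with a 95% interval from −0.79 to 0.10 (adjusted p = 0.206 by the same test). The LEFTY values carry an uncertainty from counting, since 26.8% of the 50-base stretches of LEFTY1 and 21.6% of those of LEFTY2 occur in the other gene, and 46.6% of the exon bases of LEFTY1 also belong to another protein-coding gene model on the same strand.

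TDGF1 (chromosome 3, 46574534 to 46582457, forward strand), the gene of the co-receptor CRIPTO, was the most abundant of the 10 genes per length in each group and hardly differed between the genotypes. It had 8578 and 9487 counts in the WT libraries, 10030 and 10236 for clone 1, and 9872 and 9065 for clone 2. The WT and knockout libraries overlapped fully, at 547.7 ± 29.5 CPM (n = 2) and 549.3 ± 18.9 CPM (n = 4). The log2 difference was 0.00 (SE 0.06, 95% interval −0.14 to 0.14, adjusted p = 0.966 by the same edgeR test), and its sign changed with upper-quartile scaling and with library totals alone. Its transcribed copy TDGF1P3 holds 35.2% of its own 50-base stretches in common with TDGF1, and it had 238 and 257 counts in WT and between 270 and 336 in PCGF6-KO, a log2 difference of 0.14 (adjusted p = 0.378 by the same test).

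ACVR1B (chromosome 12, 51951699 to 51997078, forward strand), the gene of the type I receptor ALK4, had 640 and 718 counts in the WT libraries, 706 and 693 for clone 1, and 576 and 501 for clone 2. After scaling the knockout libraries lay below WT without overlap, at 34.5 ± 3.52 CPM (n = 4) against 41.2 ± 2.63 CPM (n = 2). The log2 difference of −0.25 (SE 0.10, adjusted p = 0.0869 by the same edgeR test) was not called, and its 95% interval ran from −0.49 to −0.02.

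Each clone was then compared with WT separately, in a fit with all 3 groups. The same 6 genes were called higher in clone 1 (6 of 9, background 16.0%) and in clone 2 (6 of 9, background 16.9%), and these comparisons share the WT libraries. None of the 9 was called lower in clone 1 (background 8.80%), and LEFTY1 was called lower in clone 2 (1 of 9, background 12.5%). NODAL had a log2 fold change of 3.57 in clone 1 and 3.92 in clone 2, GDF3 of 1.74 and 2.14, and INHBA of 3.48 and 4.30. Among the antagonists, FST had 4.83 and 4.40, CER1 3.26 and 3.52, and LEFTY2 2.58 and 2.17. LEFTY1 had −0.11 in clone 1 with an adjusted p of 0.537, and −0.62 in clone 2 with one of 7.44e-04 (both by the quasi-likelihood test of edgeR, Benjamini-Hochberg adjusted). The call of LEFTY1 in clone 2 was close to the fold threshold, and without replicate 2 of clone 2 the value was −0.49 (adjusted p = 0.0237 by the same test) and was no longer called. TDGF1 was at −0.01 and 0.02, and ACVR1B at −0.13 and −0.39, with an adjusted p of 7.18e-04 in clone 2 but a change below the fold threshold.

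**Figure D2:**
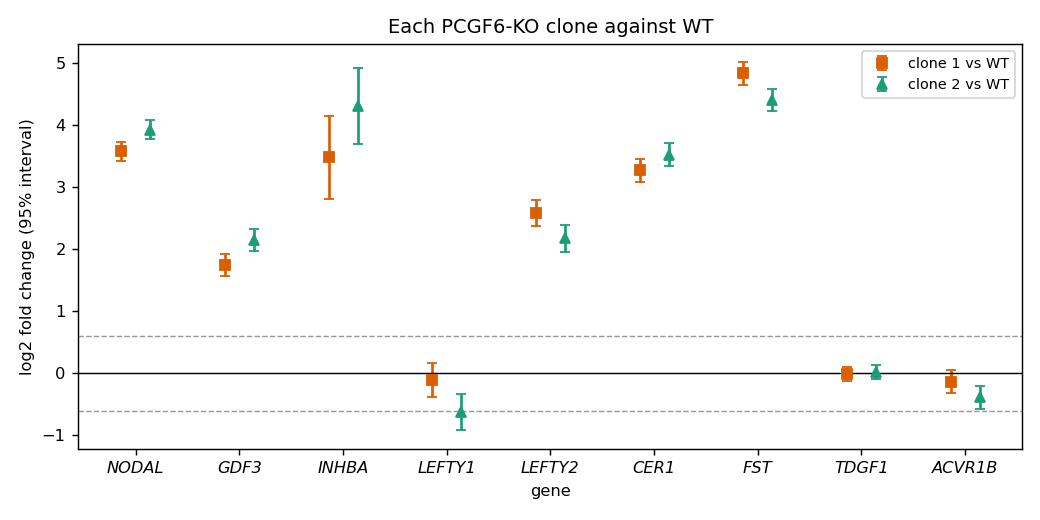
Log2 fold change of PCGF6-KO clone 1 (squares) and clone 2 (triangles) against WT for the 9 genes tested, with 95% intervals from the fit over all 3 groups (2 libraries a group) and dashed lines at the fold threshold of 0.6 in either direction. NODAL, GDF3, INHBA, LEFTY2, CER1 and FST lie above the upper line in both clones, and LEFTY1 reaches the lower line in clone 2 alone.

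The direct comparison of the clones separated ligands from antagonists in part. All 3 ligand genes tested and CER1 were higher in clone 2, and FST, LEFTY2, LEFTY1 and ACVR1B were higher in clone 1, at an adjusted p under 0.05 by edgeR with no fold threshold (4 of 9 higher in clone 2, background 10.7%, and 4 of 9 lower, background 8.82%). With the fold threshold, INHBA alone was called (1 of 9 higher, background 3.73%, and 0 of 9 lower, background 4.14%), at a log2 difference of 0.82 (SE 0.18, adjusted p = 0.00192 by the quasi-likelihood test of edgeR). DESeq2 did not call INHBA (adjusted p = 0.0719). The differences of clone 2 from clone 1 were 0.35 for NODAL (adjusted p = 1.09e-04), 0.40 for GDF3 (3.71e-04) and 0.25 for CER1 (0.00985). They were −0.42 for FST (2.2e-05), −0.41 for LEFTY2 (9.97e-04), −0.51 for LEFTY1 (0.0117) and −0.25 for ACVR1B (0.0467), with adjusted p-values from the same edgeR test in brackets. The difference in ACVR1B passed 0.05 in none of the 6 fits that left out 1 library (adjusted p from 0.0525 to 0.164). LEFTY1 did not pass without replicate 2 of clone 1 (0.0679) or replicate 2 of clone 2 (0.163), and CER1 not without replicate 2 of clone 1 (0.0912) or replicate 1 of clone 2 (0.076). TDGF1 differed by 0.03 (95% interval −0.09 to 0.14). In the same comparison the RNA of PCGF6 itself was higher in clone 2, by 0.90 on the log2 scale (adjusted p = 5.44e-05 by the same test), and the part of its RNA level in these differences was not tested.

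To compare genes with each other, CPM was divided by the gene length deposited beside the counts, which gives CPM per kb. In WT the order was TDGF1 (182.2 CPM per kb), GDF3 (14.2), NODAL (10.1), CER1 (9.08), ACVR1B (7.24), LEFTY1 (6.06), LEFTY2 (4.19), FST (3.55) and INHBA (0.0439), with INHBB at 0. TDGF1 thus stood more than 10 times above every other gene. In clone 1 the order was TDGF1 (180.9), NODAL (119.6), FST (100.9), CER1 (87.3), GDF3 (47.5), LEFTY2 (25.1), ACVR1B (6.60), LEFTY1 (5.62), INHBA (0.498) and INHBB (0.0507). In clone 2 it was TDGF1 (184.5), NODAL (152.6), CER1 (104), FST (75.3), GDF3 (62.6), LEFTY2 (18.9), ACVR1B (5.54), LEFTY1 (3.92), INHBA (0.877) and INHBB (0.0722). The order of CER1 and FST differed between the clones. In no group did the 2 libraries of one gene overlap those of the next in the order, which with 2 libraries is a description and no test. The order also depends on the length used. By the exons of GENCODE v44, NODAL has 2086 bases, FST 2752 and CER1 1231. With those lengths NODAL would stand below FST in clone 1 and below CER1 in WT. Per length, NODAL stood above 75.1% of the genes tested in WT and above 98.7% and 98.9% in clones 1 and 2, and FST moved from above 53.4% to above 98.3% and 97.1%.

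**Figure D3:**
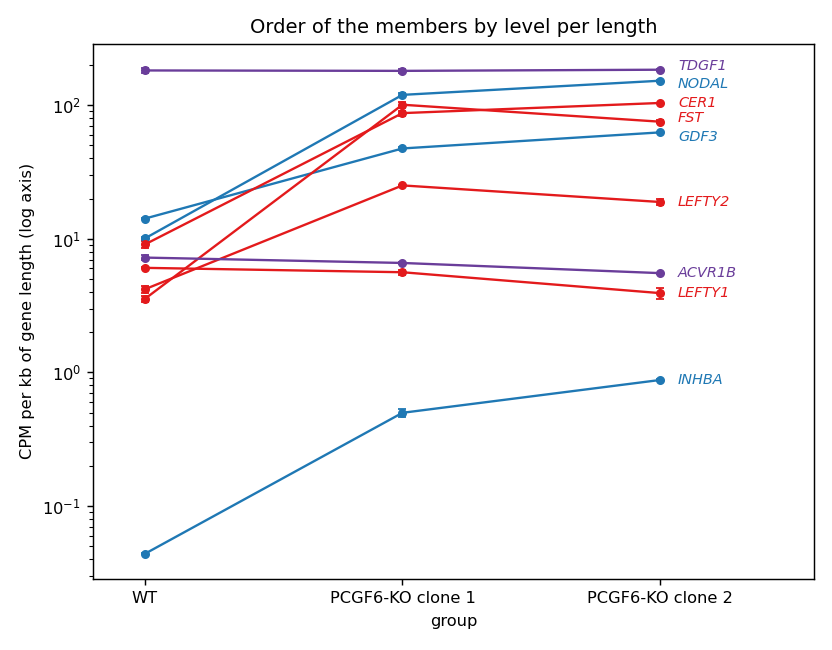
Mean level of each gene per kb of gene length in WT, PCGF6-KO clone 1 and PCGF6-KO clone 2, on a log axis, with bars from the lower to the higher of the 2 libraries. Ligand genes are blue, antagonist genes red, and the co-receptor and receptor genes purple, and INHBB is not drawn. NODAL moves from 10.1 to 119.6 and 152.6 CPM per kb of deposited length, nearer to TDGF1 than in WT. TDGF1 runs nearly level, and LEFTY1 goes from 6.06 in WT to 3.92 in clone 2.

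Because the genes rose by different amounts, their ratios within a library shifted, and these are given as descriptions with no test. TDGF1 exceeded NODAL by 17.0 and 19.3 times in the WT libraries, by 1.41 and 1.62 times in clone 1, and by 1.17 and 1.25 times in clone 2, all per deposited length. By the exons of GENCODE v44 NODAL is longer (2086 bases) and TDGF1 shorter (2489 bases), so these ratios would be larger. The ratio of NODAL to LEFTY1 and LEFTY2 together was 1.04 and 0.927 in WT, 4.10 and 3.69 for clone 1, and 6.42 and 7.01 for clone 2. The message of the ligand therefore outgrew that of its LEFTY inhibitors in both clones, more so in clone 2. LEFTY2 to LEFTY1 went from 0.654 and 0.729 in the WT libraries to 4.59 and 4.36 for clone 1 and 4.60 and 5.07 for clone 2, so the more abundant LEFTY gene was LEFTY1 in WT and LEFTY2 in PCGF6-KO. NODAL to GDF3 was 0.737 and 0.685 in WT and between 2.38 and 2.52 in the knockout libraries. NODAL to CER1 moved little, with 1.20 and 1.02 in WT, 1.35 and 1.39 for clone 1, and 1.48 and 1.45 for clone 2.

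Summed over the 4 genes of each role, ligands rose from 24.3 ± 0.174 CPM per kb in WT to 167.6 ± 7.61 in clone 1 and 216.2 ± 3.15 in clone 2, and antagonists from 22.9 ± 1.40 to 218.9 ± 3.13 and 202.1 ± 0.270 (n = 2 each). The antagonist sum stood at 0.897 and 0.988 of the ligands in WT, 1.25 and 1.36 for clone 1, and 0.926 and 0.943 for clone 2. Both sums thus rose, their ratio ran from 0.897 to 1.36, and with the deposited lengths antagonists exceeded ligands in clone 1 alone. NODAL is longer by the exons of GENCODE v44 (2086 bases), which lowers the ligand sums, so which sum is greater depends on the length used. In clone 1, FST, whose product binds activins, made up 100.9 of the 218.9 CPM per kb of antagonists. NODAL made up 119.6 of the 167.6 CPM per kb of ligands in that clone. The sums pool antagonists of different ligands, so they give no balance between a ligand and its own inhibitor. FST to INHBA was 76.0 and 86.2 in WT, 204 and 201 for clone 1, and 82.4 and 89.6 for clone 2.

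**Figure D4:**
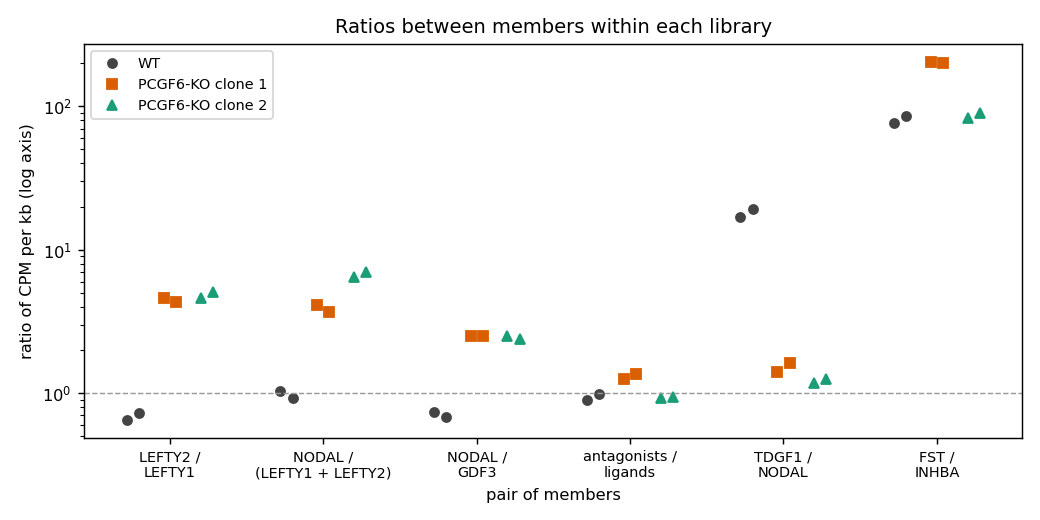
Ratios of levels per kb of gene length within each library, on a log axis, for WT (circles), PCGF6-KO clone 1 (squares) and PCGF6-KO clone 2 (triangles), with a dashed line at 1. LEFTY2 to LEFTY1, NODAL to the LEFTY genes and NODAL to GDF3 lie at or below 1.04 in WT and at or above 2.38 in all 4 PCGF6-KO libraries, and TDGF1 to NODAL falls from at least 17.0 to at most 1.62.

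Of 42 other genes of the activin and TGF-beta branch listed by role, 37 were tested, and 17 were higher and 3 lower by the call rule in PCGF6-KO than in WT (background 14.9% and 8.70%). Of the other genes of ligands or ligand subunits, 4 of 6 tested rose. These were TGFB2 (log2 fold change 4.03), TGFB1 (2.55), INHA (1.88) and TGFB3 (1.43). INHA encodes the inhibin subunit and not an activin subunit, so its rise is not one of an activin. TGFB2 had 15 and 18 counts in WT, and 22.7% of its exon bases lie in TGFB2-OT1 on the same strand. A further overlap, of 11.6%, is with TGFB2-AS1 on the other strand. INHBE fell by 0.83 on the log2 scale, a call that was lost without replicate 1 of WT (adjusted p = 0.0562 by the same edgeR test) or replicate 2 of WT (0.105). GDF11 was at −0.43 and not called, and MSTN and INHBC had at most 5 counts in any library. GDF1 had 0 counts in every library, but 100% of its exon bases lie in CERS1 on the same strand, so its reads may not have been assignable. The list, with INHA counted in it, had a median log2 fold change of 1.65, where that of all genes tested was 0.00.

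None of the 6 other receptor genes tested was called in either direction, with a median of −0.18. The type I receptor genes TGFBR1 and ACVR1C were at −0.06 and 0.77 (adjusted p = 0.739 and 0.133 by the quasi-likelihood test of edgeR, Benjamini-Hochberg adjusted). The type II receptor genes ACVR2A, ACVR2B and TGFBR2 were at −0.22, −0.36 and −0.46 (0.158, 0.00347 and 0.0703 by the same test), and the co-receptor gene TGFBR3 at −0.14 (0.475). ACVR1C was called (0.99, adjusted p = 0.0182) without replicate 1 of clone 1. By clone, ACVR1C was called higher in clone 2 (1.09) and TGFBR2 lower in clone 1 (−0.72). CFC1, which encodes the other EGF-CFC co-receptor, had 0 counts in WT and 2 to 5 in the knockout libraries. CFC1 shares 86.7% of its 50-base stretches with its copy CFC1B, so neither could be measured on its own.

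Of 6 genes of proprotein convertases and modulators, 4 rose in PCGF6-KO (background 14.9%) and 1 fell (8.70%). FURIN (log2 fold change 1.20) and PCSK6 (1.32) encode convertases that can cut the NODAL precursor, and PCSK5, which encodes a convertase of the same family, fell by 0.94. BAMBI (2.38), a decoy receptor gene, and PMEPA1 (1.28), whose product binds SMAD2 and SMAD3, rose, and FSTL3, a follistatin relative, was at 0.12 (adjusted p = 0.677 by the quasi-likelihood test of edgeR). The median of this list was 1.24.

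Of 11 genes of SMAD effectors and nuclear modulators, 2 were called higher and none lower, a share near the background of 14.9% and 8.70%. SMAD3, an effector, rose by 1.41 and SMAD7, an inhibitor, by 0.63 on the log2 scale. The call of SMAD7 was lost without replicate 1 of WT (0.53), replicate 1 of clone 2 (0.57) or replicate 2 of clone 2 (0.59). SMAD2 was at 0.27, SMAD4 at −0.33 and FOXH1 at 0.20, all under the fold threshold, and FOXH1 overlaps KIFC2 on the other strand over 39.2% of its exon bases. The median of the list was 0.03, and 9 of the 11 genes were not called.

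Of 8 transcription factor genes known to respond to NODAL, 7 rose (background 14.9%) and OTX2, which is active in undifferentiated human PSCs as well as in the early embryo, fell by 1.26 on the log2 scale (background 8.70%). TBXT, a primitive streak gene, had 0 and 12 counts in WT and between 3065 and 5515 in PCGF6-KO. Its log2 fold change of 9.31 rested on 1 WT library, with 8.34 without replicate 1 of WT and an at least 1280-fold difference, against 3 counts, without replicate 2 of WT. EOMES had 3 and 5 counts in WT and between 1615 and 2630 in PCGF6-KO (8.87), and MIXL1 46 to 70 and 5494 to 5918 (6.48). EOMES and TBXT thus went from near the detection limit to counts of at least 1615. LHX1 rose by 2.64 and FOXA2 by 2.04. The call of FOXA2 was lost without replicate 1 of WT (adjusted p = 0.0926 by the same edgeR test) or replicate 2 of WT (0.147). GSC had 1 and 1 counts in WT and 49 to 60 in PCGF6-KO, a ratio of 51.4 with an exact 95% interval from 14.1 to 427 that covers counting error only. SOX17 had 0 counts in WT and 33 to 47 in PCGF6-KO, at least 13.2-fold higher against 3 counts per library. Over the 8 genes the median was 6.01 on the log2 scale, or 4.63 with SOX17 at its bound.

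**Figure D5:**
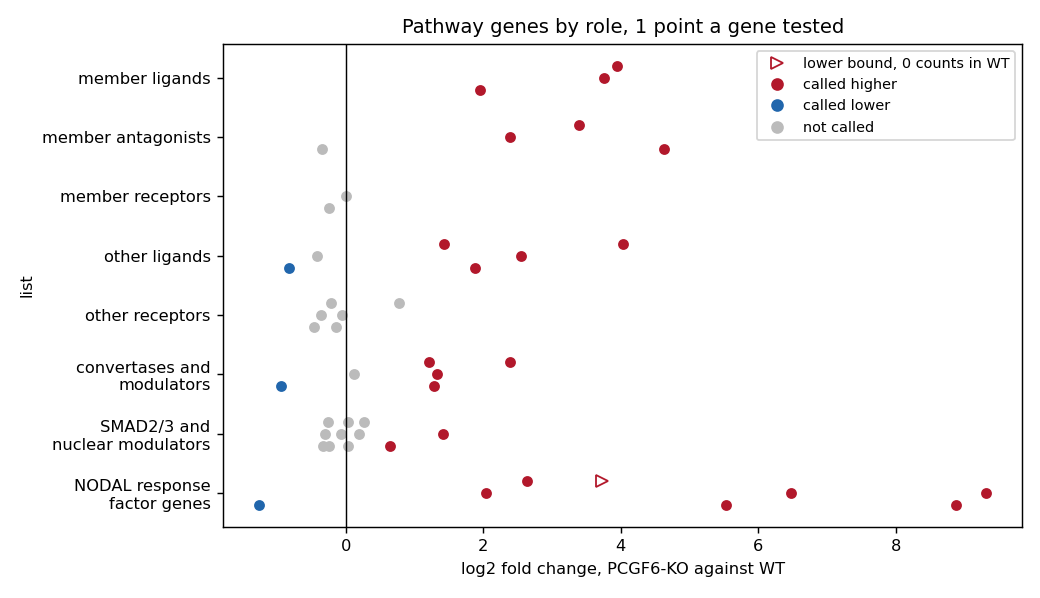
Log2 fold change of PCGF6-KO (4 libraries) against WT (2 libraries) for the 9 genes of the main list and the 37 other pathway genes tested, by role, with 1 point for each gene, coloured by its call and spread vertically to avoid overlap. The open triangle is SOX17, drawn at its lower bound. Ligand, antagonist and NODAL response genes lie mostly to the right of 1, and receptor and SMAD genes mostly near 0.

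In bulk RNA, more cells of a type and more RNA of a gene in each cell cannot be told apart, and markers of other cell types moved together with these genes. All 4 primitive streak markers (TBXT, MIXL1, EOMES and GSC, which the list of NODAL response genes also holds) were called higher, and their sum was 3.84 to 4.54 CPM in WT, 613 to 614 in clone 1 and 722 to 738 in clone 2. Definitive endoderm markers (3 of 4 higher, SOX17 at 0 in WT) summed to 1.98 to 2.46, 14.2 to 14.5 and 22.3 to 23.8 CPM. Mesoderm markers (4 of 4 tested higher, with HAND1 and MESP1 at 0 in WT) summed to 155, 520 to 552 and 591 to 614 CPM. KDR made up 149.5 and 149.3 CPM of the mesoderm sums in WT and between 453.8 and 494.5 CPM in PCGF6-KO. Trophoblast and amnion markers (3 of 4 tested higher) went from 3.96 to 5.28 CPM in WT to 65.9 to 73.7 and 115 to 126 CPM. Neuroectoderm markers (2 of 3 tested higher) went from 277 to 323 CPM in WT to 595 to 671 and 626 to 713 CPM, of which NES alone made up 276.9 and 322.5 CPM in WT and 591.8 to 709.2 CPM in PCGF6-KO, while SOX1 had at most 1 count in any library and PAX6 was under 1 CPM. ZIC1, the other neuroectoderm marker called higher, had 3 and 6 counts in WT and 41 to 62 in PCGF6-KO (log2 fold change 3.32). Fibroblast markers (4 of 5 higher, 1 lower, DCN at 0 in WT) went from 832 to 844 CPM to 1670 to 1700 and 1900 to 1980 CPM. The marker that fell was THY1, which made up 620.5 and 605.0 CPM of the WT sums and 258.4 to 284.3 CPM in PCGF6-KO. The collagen genes COL1A1, COL1A2 and COL3A1 rose, and DCN stayed under 1 CPM. The part of any of these cell types in the levels of the ligand and antagonist genes was not tested. All these lists but that of pluripotency had higher sums in every knockout library than in WT. Primitive streak, endoderm, mesoderm, trophoblast and fibroblast sums were higher in clone 2 than in clone 1. Single markers within them went the other way, such as EOMES (log2 difference −0.53), KRT7 (−0.98) and COL1A1 (−0.28). NODAL, GDF3, INHBA and CER1 were higher in clone 2, whereas FST, LEFTY2, LEFTY1 and ACVR1B were higher in clone 1.

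The genes whose pattern over the 6 libraries was closest to that of NODAL, by the distance between log2 CPM values after each gene's mean was subtracted, were SYTL5 (distance 0.134), SERPINE2 (0.208), LINC02600 (0.213), KIF26B (0.242) and LINC01356 (0.258), out of 13854 candidates whose average log2 CPM was at least 1. SERPINE2, which encodes a secreted protease inhibitor, had 997 and 1044 counts in WT and between 13434 and 15210 in PCGF6-KO. Of the genes examined here, CER1 (0.456) and INHBA (0.537) came nearest to NODAL, with 27 and 45 candidates closer. FST (1.29), LEFTY2 (1.77) and GDF3 (2.08) lay farther from NODAL by this distance. It also depends on how far a gene rose from WT, and so does not measure only whether genes move together. The ratio of NODAL to GDF3, for example, stayed between 2.38 and 2.52 in the knockout libraries.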

How the data were processed

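RNA-seq was done on 6 libraries of PGP1 cells, 2 each of WT, PCGF6-KO clone 1 and PCGF6-KO clone 2, grouped by the labels. The authors trimmed the reads with Trim Galore (0.6.2), aligned them to GRCh38 with HISAT2 (2.1.0) and summarised them by gene in featureCounts. They deposited the raw counts with a length for each gene. Strandedness, the treatment of multi-mapping and the release of the annotation are not given in the sources used here, so values of overlapping or near-identical genes are uncertain. ChIP-seq was not analysed here.

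Genes were filtered with filterByExpr on the 2 genotypes, scaled by TMM and tested by glmQLFit and glmQLFTest of edgeR (4.0.16, limma 3.58.1, R 4.3.3) with Benjamini-Hochberg adjustment over 17672 genes. PCGF6-KO was compared with WT as 2 groups, and the clones in a fit with 3 groups. Intervals are 95% intervals of the fit. The genes named are the 10 of the main list, PCGF6, the genes of the pathway and marker lists and the 5 closest in pattern to NODAL, with log2 CPM at a prior count of 2. The members and lists were chosen with earlier results of these data known, and 1 listed pathway gene is not reported here. Positions and overlaps came from GENCODE v44, promoter windows from RefSeq, and steps were tested on simulated data. Alternatives were DESeq2 (1.42.0), other scalings, filters and thresholds, a replicate block, fewer groups in a fit, the mean of the clones, another gene length and leaving out each library. Python 3.11.15 with numpy 2.4.6, pandas 2.3.3 and matplotlib 3.10.9 drew the figures. Intervals and limits of single counts cover counting error only.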

Additional observations from a re-analysis of the deposited data

Results flagged for a closer look

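Of the 46 genes of the main list and the pathway lists that were tested, 6 were called between the clones, all of them higher in clone 2 (background 3.73% higher and 4.14% lower of all genes tested), by edgeR's quasi-likelihood test of the difference itself with Benjamini-Hochberg adjustment. INHBA, the activin A gene, differed by 0.82 on the log2 scale (adjusted p = 0.00192), and it was higher in both libraries of clone 2 than in both of clone 1. TGFB1 differed by 0.65 (2.36e-07) and the decoy receptor gene BAMBI by 0.75 (3.11e-08). Among the NODAL response genes, LHX1 differed by 1.17 (2.71e-04), FOXA2 by 1.10 (0.0315) and TBXT by 0.75 (2.33e-07), with adjusted p-values of the same edgeR test in brackets. The part of the remaining PCGF6 reads, which were more in clone 2, in these differences was not tested.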

How the results depend on the processing

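The 6 genes called higher in PCGF6-KO against WT numbered 6 under each alternative except a filter that asked 10 counts of every library, which gave 5 because INHBA was not tested. Of the values of single genes under the alternatives, 546 kept their direction and their side of the threshold, 9 passed it newly, 4 lost it and 13 changed sign, all 13 those of TDGF1. TDGF1 was never called. Against WT it went to −0.029 with upper-quartile scaling, −0.048 with library totals alone and −0.052 to 0.061 with a library left out. In clone 1 it went to 0.012 with the filter of 10 counts and −0.066 to 0.053 with a library left out. In clone 2 it went to −0.027 with upper-quartile scaling, −0.071 with library totals and −0.038 to 0.07 with a library left out, and between the clones to −0.046 with library totals and −0.018 to 0.075 with a library left out. LEFTY1 in clone 2 ranged from −0.77 to −0.49 with a library left out and was not called by glmTreat against a 1.5-fold change (adjusted p = 0.572). Between the clones, the count of 1 called gene became 0 with DESeq2, with the filter of 10 counts, where INHBA was not tested, and with glmTreat, 8 with the adjusted p alone, and 1 to 2 with a library left out, where LEFTY1 was added without replicate 1 of clone 2 (−0.67). The 5 other pathway genes called between the clones became 3 with DESeq2, 13 with the adjusted p alone, 0 with glmTreat and 4 to 7 with a library left out.

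Over all genes tested, the adjusted p alone called 6556 in PCGF6-KO, 8002 in clone 1, 8904 in clone 2 and 3442 between the clones, where the fold threshold left 4167, 4379, 5197 and 1390. By glmTreat 2621 were called in PCGF6-KO and 403 between the clones, and DESeq2 called 810 between the clones. With a library left out the counts were 3041 to 4251, 4068 to 4322, 4794 to 5192 and 1102 to 1419. Of the genes called between the clones, 47.4% were higher in clone 2, and 36.6% with library totals alone. The labels do not say whether replicate numbers pair libraries across the groups. Correlations of the replicate differences were low (0.04, 0.06 and 0.13), which does not settle it. A fit with the replicate block called 3876, 4420, 5233 and 1484 genes, and no call of the 9 genes changed. The cause of these shifts was not tested. With 2 libraries a group, INHBB (0 to 5 counts) was tested only without the filter, and INHBA, with 6 counts in each WT library, had a wide error.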
